A study of Homo sapiens with 11 samples.

Results

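RAB proteins are small GTPases that mark membrane compartments, and the RAB11 family interacting proteins (RAB11FIP1 to RAB11FIP5) are adaptors that link RAB11 to motors and cargo. The genes described here were all those in the deposited value table whose symbol was RAB with a number and an optional letter or subtype, from RAB1A to RAB43, or RAB11FIP1 to RAB11FIP5. There were 68 such genes among 20046 named genes. They were measured in MDA-MB-231, a human breast adenocarcinoma cell line, in 4 groups of Illumina arrays. The groups were MASTL siRNA for 24 h (2 arrays, replicates 1 and 3), control siRNA for 24 h (3 arrays, replicates 1, 2 and 3), MASTL siRNA for 48 h (3 arrays, replicates 1, 3 and 4) and control siRNA for 48 h (3 arrays, replicates 1, 3 and 4). All cells were lipid-transfected, the controls with a non-targeting siRNA, and MASTL encodes the mitotic kinase Greatwall. Silencing used a single siRNA sequence, so an effect of MASTL loss and an effect of that sequence on other RNAs cannot be told apart. The sequence, as the labels give it, is shown because it alone defines the silenced groups.
MASTL siRNA: acgccttattctagcaaatta

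A RAB protein works as a switch. An exchange factor loads it with GTP at a membrane, it then recruits effectors such as tethers and motors, and a GTPase-activating protein returns it to the GDP-bound form that a dissociation inhibitor can extract. In carcinoma cells RAB proteins are known for the recycling of integrins and growth factor receptors to the surface, for the delivery of matrix-degrading enzymes and for the turnover of endosomes and lysosomes.

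Values were the authors' normalized log2 signals, 1 probe per gene, the probe of highest mean over the 11 arrays. A probe was tested if it exceeded a noise limit of 7.41 on at least 2 arrays, and a gene was called at a limma p under 0.05 after Benjamini-Hochberg adjustment over all 22003 features tested. MASTL was lower on every silenced array, at 7.65 ± 0.053 in MASTL siRNA cells against 8.71 ± 0.054 in control cells at 24 h (SD, n = 2 and 3) and at 7.58 ± 0.077 against 8.52 ± 0.18 at 48 h (SD, n = 3 each). The epithelial markers KRT8, KRT18 and EPCAM and the mesenchymal marker VIM exceeded the noise limit on all 11 arrays. So did CD44, EGFR, FN1 and GATA3, and so did the myeloid marker CD14 and the endothelial marker PECAM1, 10 of 15 markers in all. CD14 averaged 8.01 ± 0.15 in MASTL siRNA cells against 8.28 ± 0.19 in control cells at 24 h (SD, n = 2 and 3), and 8.396 ± 0.16 against 8.71 ± 0.22 at 48 h (SD, n = 3 each). PECAM1 averaged 7.51 ± 0.025 in MASTL siRNA cells against 7.61 ± 0.16 in control cells at 24 h, and 7.68 ± 0.11 against 7.92 ± 0.10 at 48 h. Neither was called, and their part in the results was not tested. CDH1, the leukocyte markers PTPRC and CD3E and the endothelial marker VWF exceeded the limit on 0 arrays, and ESR1 on 1. Whether each numbered replicate was its own culture is not stated in the labels. The p-values therefore speak only for array-to-array spread, which may be technical, and the number of arrays limits the precision. Values near the noise limit understate a change.

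Of the 68 genes, 55 were tested, and 45 of these exceeded the noise limit on all 11 arrays. The other 13 exceeded it on at most 1 array. They were RAB11FIP4, the SOCS box genes RAB40A and RAB40AL, the secretory genes RAB3C and RAB3D, the lysosomal RAB7B, and RAB6C, RAB6D, RAB19, RAB33A, RAB39A, RAB39B and RAB41. No level of these 13 genes could be compared between groups.

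The members were chosen with earlier results of these data known, so the shares below describe them and do not test the family. The comparison is also unlike, since only 13965 of the 22003 features were named genes and 2 arrays above the limit sufficed. After 24 h of MASTL siRNA 5 of the 55 tested genes were called, which is 9.09%, beside 0.9% of all features. RAB23, RAB40B, RAB11FIP1 and RAB11FIP2 rose and RAB8B fell. For rises the background was 0.241% and for falls 0.659%. At 48 h 6 genes were called, 10.9% beside 2.36% of all features, and they were the same 5 genes in the same directions with RAB9A added as a rise. The background at 48 h was 1.05% for rises and 1.31% for falls. About as many genes lay above 0 as below it. The median log2 change of the 55 genes was -0.0054 at 24 h and -0.0041 at 48 h, beside 0.0030 and 0.0013 over all features, with 26 genes positive and 29 negative at each time. The 5 genes called at both times were 9.09% of those tested, beside 0.8% of all features. Both times used arrays of their own, with 1 shared estimate of the spread.

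**Figure D1:**
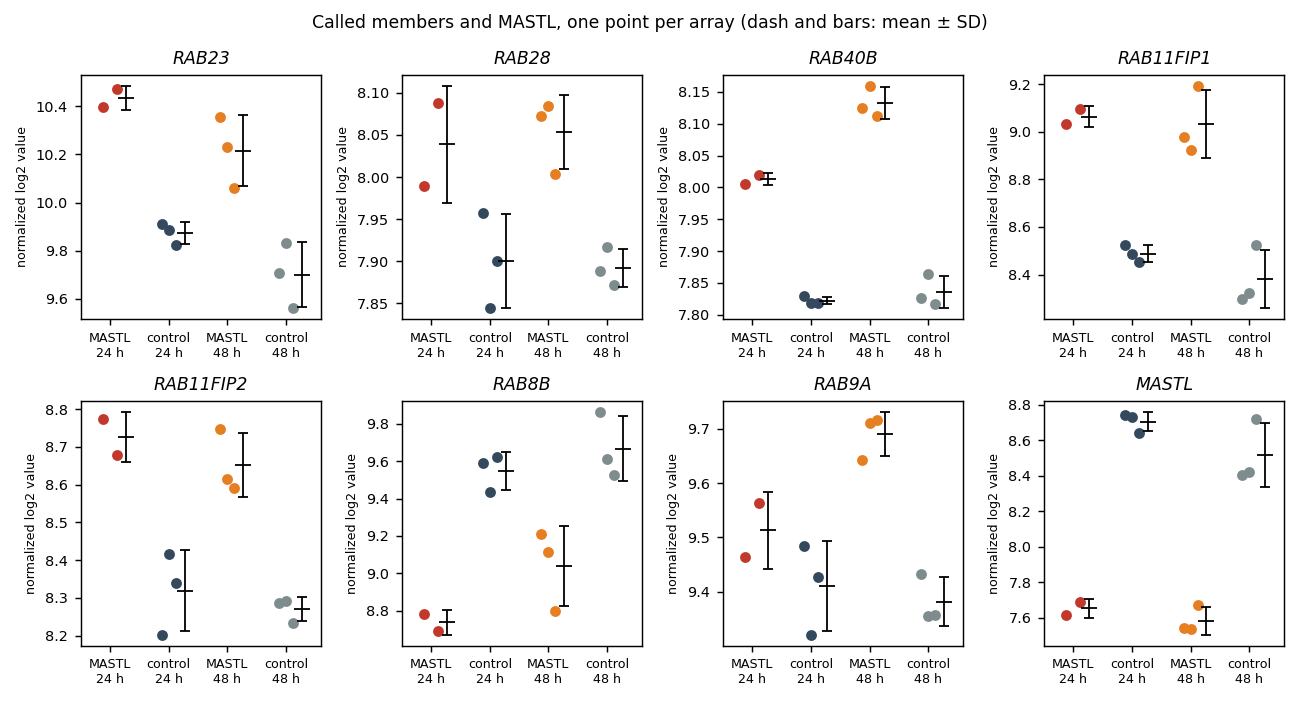
Normalized log2 value (vertical axes, each with its own range) of the 7 RAB family genes called in any comparison and of MASTL, 1 point per array, with the mean and SD of each group beside the points. RAB23, RAB28, RAB40B, RAB11FIP1 and RAB11FIP2 lie higher in MASTL siRNA cells at both times with no overlap, RAB8B and MASTL lie lower, and RAB9A is apart at 48 h only.

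RAB11FIP1, also called RAB coupling protein, brings integrins and receptor tyrosine kinases back to the surface with RAB11. Its log2 values were 9.03 and 9.09 in MASTL siRNA cells at 24 h, against 8.53, 8.48 and 8.45 in control cells. At 48 h they were 8.98, 8.92 and 9.19 in MASTL siRNA cells, against 8.30, 8.32 and 8.52 in control cells. The groups did not overlap at either time, and the lowest silenced array stood well above the highest control array. The rise was 0.58 (SE 0.087, limma adjusted p = 0.0203) at 24 h and 0.65 (SE 0.077, adjusted p = 0.00437) at 48 h, which is 1.49-fold and 1.57-fold.

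RAB11FIP2 couples RAB11 to the motor myosin Vb. It read 8.77 and 8.68 in MASTL siRNA cells at 24 h, against 8.20, 8.42 and 8.34 in control cells. At 48 h it read 8.75, 8.61 and 8.59 in MASTL siRNA cells, against 8.29, 8.29 and 8.23 in control cells. All 5 silenced arrays lay above all 6 control arrays. The log2 rise was 0.41 (SE 0.067, adjusted p = 0.0324) at 24 h and 0.38 (SE 0.060, adjusted p = 0.0147) at 48 h.

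RAB11FIP3, which carries RAB11 endosomes to the cleavage furrow in dividing cells, and RAB11FIP5, an adaptor for apical and receptor recycling, were positive at both times without a call. RAB11FIP3 had a log2 change of 0.21 (SE 0.13, adjusted p = 0.724) at 24 h and of 0.35 (SE 0.11, adjusted p = 0.179) at 48 h, and at 48 h the 3 silenced arrays lay above the 3 control arrays. RAB11FIP5 had 0.087 (SE 0.089, adjusted p = 0.882) and 0.18 (SE 0.079, adjusted p = 0.348). So 4 of 4 tested interactors were positive at both times, by the probe of highest mean, and 2 of them were called. Their median log2 change was 0.31 at 24 h and 0.37 at 48 h. Of all 22003 features 11569 were positive at 24 h and 11262 at 48 h, and 0.9% and 2.36% were called. The role groups were chosen with earlier results known, so the count is a description. A second RAB11FIP1 probe, close to the noise limit, had -0.0009 at 24 h.

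RAB11A, RAB11B and the other recycling endosome RAB genes were not called without a replicate block. Of the 5 recycling endosome RAB genes (RAB11A, RAB11B, RAB15, RAB17 and RAB25) 0 were called at either time, and 0 had an unadjusted limma p under 0.05. RAB11A, the ubiquitous RAB11, had log2 values of 10.30 and 10.39 in MASTL siRNA cells at 24 h, against 10.28, 10.62 and 10.31 in control cells. At 48 h it had 11.07, 10.81 and 10.76 in MASTL siRNA cells, against 10.78, 10.62 and 10.52 in control cells. The groups overlapped at both times, with changes of -0.055 (SE 0.13, adjusted p = 0.960) and 0.24 (SE 0.12, adjusted p = 0.412). The SD was 0.064 in MASTL siRNA cells and 0.19 in control cells at 24 h, and 0.17 and 0.13 at 48 h. RAB11B had log2 changes of -0.049 (SE 0.038, adjusted p = 0.824) and -0.010 (SE 0.034, adjusted p = 0.950). RAB15, RAB17 and RAB25, the last an epithelial relative of RAB11, had changes between -0.048 and 0.043 over both times.

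RAB8B, a partner of RAB8A in the delivery of membrane proteins to the surface, was called as lower at both times. Its log2 values were 8.78 and 8.69 in MASTL siRNA cells at 24 h, against 9.59, 9.43 and 9.62 in control cells. At 48 h they were 9.21, 9.11 and 8.80 in MASTL siRNA cells, against 9.86, 9.61 and 9.53 in control cells. Every silenced array lay below every control array of its time. The fall was the largest change of any member at 24 h, -0.81 on the log2 scale (SE 0.13, adjusted p = 0.0303), or 1.75-fold lower, and at 48 h it was -0.63 (SE 0.12, adjusted p = 0.0316), or 1.54-fold lower. RAB8A was not called. Its change was -0.050 (SE 0.051, adjusted p = 0.881) at 24 h and -0.0055 (SE 0.046, adjusted p = 0.978) at 48 h. RAB10, which delivers glucose transporters and basement membrane proteins, had 0.043 (SE 0.090, adjusted p = 0.953) and 0.12 (SE 0.081, adjusted p = 0.583). RAB12 and RAB13 were not called either, so 1 of the 5 genes of this group was called.

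RAB23 opposes Hedgehog signalling in the mouse and is linked to the primary cilium. Its log2 values were 10.40 and 10.47 in MASTL siRNA cells at 24 h, against 9.91, 9.88 and 9.82 in control cells. At 48 h they were 10.35, 10.23 and 10.06 in MASTL siRNA cells, against 9.71, 9.83 and 9.56 in control cells. The groups were clear of each other at both times. The rise was 0.56 (SE 0.093, adjusted p = 0.0326) at 24 h and 0.52 (SE 0.083, adjusted p = 0.0166) at 48 h, or 1.48-fold and 1.43-fold. RAB28, a farnesylated RAB of cilia and photoreceptor outer segments, was apart in the same direction at both times, with values of 7.99 and 8.09 in MASTL siRNA cells at 24 h against 7.96, 7.84 and 7.90 in control cells, and 8.07, 8.08 and 8.003 at 48 h against 7.89, 7.92 and 7.87. It was not called at 24 h (0.14, SE 0.043, adjusted p = 0.286) or at 48 h (0.16, SE 0.038, adjusted p = 0.0721). In the average of both times it was called, with a rise of 0.15 (SE 0.028, adjusted p = 0.0208).

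RAB40B recruits a cullin ubiquitin ligase through its SOCS box and is known for the delivery of matrix metalloproteinases to invadopodia in breast cancer cells. It had the smallest SE of the called genes, with log2 values of 8.01 and 8.02 in MASTL siRNA cells at 24 h against 7.83, 7.82 and 7.82 in control cells. At 48 h it had 8.12, 8.16 and 8.11 in MASTL siRNA cells against 7.83, 7.86 and 7.82 in control cells. The rise was small and uniform, 0.19 (SE 0.023, adjusted p = 0.00729) at 24 h and 0.30 (SE 0.020, adjusted p = 0.000408) at 48 h, or 1.14-fold and 1.23-fold. RAB40B also had the lowest mean level of the called members, 7.94, beside a noise limit of 7.41 near which changes are understated. Its 24 h call was lost with trend and robust moderation (adjusted p = 0.113). The 48 h change exceeded the 24 h change by 0.11 (SE 0.031), with an unadjusted limma p of 0.00765 that became 0.9998 after adjustment. RAB40C, the other tested gene of the group, had the opposite sign, -0.16 (SE 0.10, adjusted p = 0.733) at 24 h and -0.20 (SE 0.090, adjusted p = 0.369) at 48 h, and was not called.

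RAB9A returns mannose phosphate receptors from late endosomes to the trans-Golgi network. At 24 h it read 9.46 and 9.56 in MASTL siRNA cells, against 9.48, 9.32 and 9.43 in control cells, and the groups overlapped (0.10, SE 0.052, adjusted p = 0.644). At 48 h it read 9.64, 9.71 and 9.72 in MASTL siRNA cells, against 9.43, 9.36 and 9.36 in control cells. There the groups were apart and the rise was 0.31 (SE 0.047, adjusted p = 0.0123), or 1.24-fold. The 48 h change minus the 24 h change was 0.21 (SE 0.070, unadjusted p = 0.0176, adjusted p = 0.9998), so a difference between the times did not pass the test. RAB7A, the late endosome and lysosome RAB, had log2 changes of 0.075 (SE 0.18, adjusted p = 0.962) and -0.0062 (SE 0.16, adjusted p = 0.994). RAB32, which acts at lysosome-related organelles and mitochondria, had log2 changes of 0.10 (SE 0.13) and 0.39 (SE 0.12, adjusted p = 0.160), and its groups were apart at 48 h.

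The other 3 role groups held no called gene at either time without a replicate block. Of 11 early endosome and fast recycling genes 4 were positive at 24 h and 5 at 48 h. RAB5A, which drives the fusion of early endosomes, read 9.23 and 9.17 in MASTL siRNA cells at 24 h, against 9.51, 9.43 and 9.43 in control cells, and 9.51, 9.40 and 9.24 at 48 h, against 9.84, 9.77 and 9.50. Its groups were apart at 24 h and overlapped at 48 h, with changes of -0.26 (SE 0.10, adjusted p = 0.498) and -0.32 (SE 0.093, adjusted p = 0.139). Its average of -0.29 (adjusted p = 0.0552) was not called, but passed with cyclic loess (0.0449), with the stricter filter (0.0383) and with trend and robust moderation (0.0443). Without 48 h control replicate 4 it was called at 48 h (0.0327) and on average (0.0116), and without 48 h MASTL replicate 1 on average (0.0474). RAB5A was also called with the replicate number as a block, a fit described below. With a block over all arrays the limma adjusted p was 0.0166 at 24 h, 0.0021 at 48 h and 0.00088 on average. With a block within each time the values were 0.0188, 0.0024 and 0.0013. RAB31, an endosomal RAB that is abundant in some breast cancers, had -0.52 (SE 0.31, adjusted p = 0.727) and -0.57 (SE 0.28, adjusted p = 0.419), the largest SE of the members at each time. RAB5B had -0.12 (SE 0.099) and -0.047 (SE 0.089), neither called.

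Of 19 genes of endoplasmic reticulum to Golgi and Golgi traffic 12 were tested, and 5 were positive at each time. RAB2B, of the early secretory pathway, had -0.15 (SE 0.13, adjusted p = 0.849) at 24 h and -0.27 (SE 0.11, adjusted p = 0.331) at 48 h, and its relative RAB2A had -0.13 (SE 0.075, adjusted p = 0.702) and -0.18 (SE 0.067, adjusted p = 0.256). RAB34, which acts at the Golgi and at early ciliary membranes, had 0.031 (SE 0.10) and 0.068 (SE 0.090). RAB6B, a Golgi RAB best known from neurons, was apart and positive at both times with changes of 0.060 (SE 0.021, adjusted p = 0.374) and 0.045 (SE 0.019, adjusted p = 0.312), at levels of 7.46 and 7.41 in MASTL siRNA cells at 24 h that are close to the noise limit. Of the 8 regulated secretion genes 6 were tested and all 6 were negative at 24 h, between -0.12 and -0.0016, of which RAB27A, a RAB of exosome and granule release, had -0.12 (SE 0.057, adjusted p = 0.614). At 48 h 5 of the 6 were negative, and RAB3B was the positive one with 0.054 (SE 0.026, adjusted p = 0.407). RAB27B, the relative of RAB27A, had -0.0054 (SE 0.22) and -0.061 (SE 0.20).

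The count of genes whose groups did not overlap was 18 of 55 at 24 h, 32.7% beside 25.2% of all features, and 11 at 48 h, 20% beside 18.8%. At both times and in the same direction 7 genes were apart (RAB11FIP1, RAB11FIP2, RAB23, RAB28, RAB40B, RAB6B and RAB8B), 12.7% beside 7.25%. In the average of both times 7 genes were called, 12.7% beside 4.7% of all features, namely RAB11FIP1, RAB11FIP2, RAB23, RAB28, RAB40B and RAB9A as rises and RAB8B as a fall. The background of the average was 2.35% for rises and 2.35% for falls. The 48 h change minus the 24 h change had 0 calls among the members and 0 among all 22003 features by limma, with an unadjusted p under 0.05 for 2 members, RAB40B and RAB9A, and for 663 features.

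**Figure D2:**
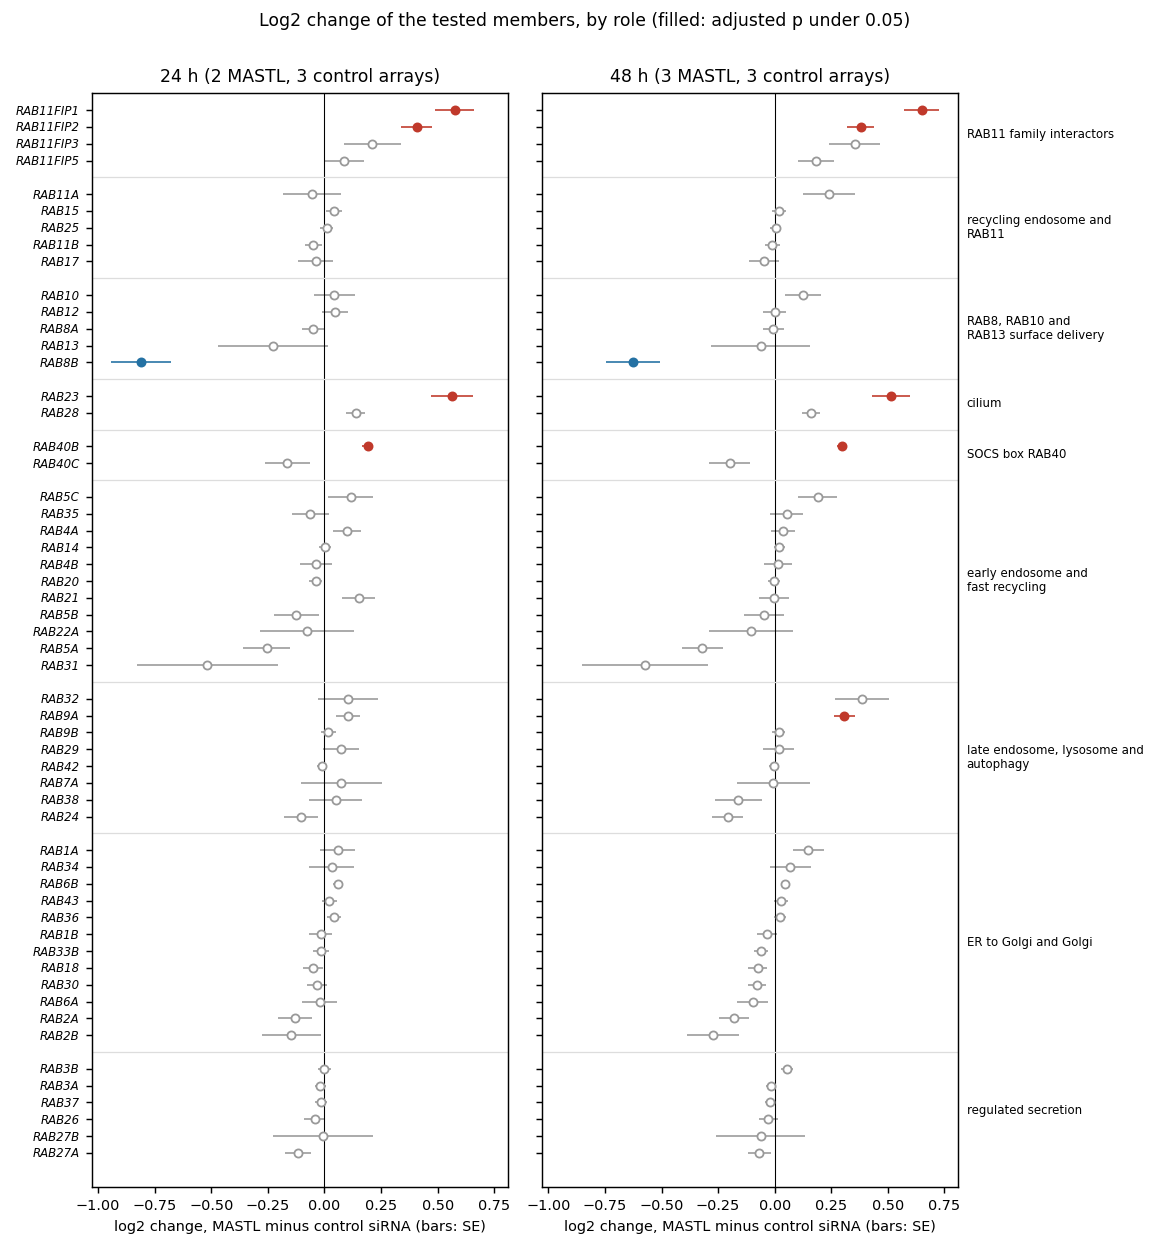
Log2 change, MASTL minus control siRNA (horizontal axes, bars SE), of the 55 tested genes at 24 h (left) and 48 h (right), grouped by role and ordered by the 48 h change. Filled points have an adjusted p under 0.05, red for rises and blue for falls. The 4 RAB11 interactors at the top, by the probe of highest mean, all lie right of 0 at both times.

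At 48 h the replicate numbers were read as pairs from correlations alone, since the labels do not say what a number shares. Same-numbered MASTL and control arrays deviated together from their group means, with correlations across features of 0.693, 0.549 and 0.773 for replicates 1, 3 and 4. Differently numbered MASTL and control arrays of 48 h correlated between -0.714 and 0.119. Deviations from a mean of 3 arrays sum to 0, so these correlations are not independent. With the replicate number as a block within each time, 19 of the 55 genes were called at 48 h, 12 as rises and 7 as falls. That is 34.5% of those tested, beside 12.3% of all features under the same fit. All 6 genes called without the block were among the 19. A block over all arrays called 14 genes at 48 h, 25.5% beside 8.49% of all features, again with the 6 among them and without RAB11A, RAB11FIP3, RAB11FIP5, RAB32 and RAB5C. At 24 h both fits called 8 genes, beside 1.64% of all features with the block over all arrays and 2.93% with the block within each time. The 3 genes that each fit added there were RAB21 as a rise and RAB31 and RAB5A as falls. The limma adjusted p was 0.0423 and 0.0365 for RAB21, and 0.0379 and 0.0398 for RAB31. At 24 h 2 pairs were too few to decide the pairing. On average the block over all arrays called 13 beside 10.2%, and the block within each time 19 beside 13.6%. The block within each time added 13 genes at 48 h. They were RAB1A, RAB5C, RAB11A, RAB11FIP3, RAB11FIP5, RAB28 and RAB32 as rises and RAB2A, RAB2B, RAB5A, RAB24, RAB31 and RAB38 as falls. At 48 h, where every array has a partner, the block leaves each log2 change as it is and alters its error. Among the added genes not given above, the 48 h change was 0.15 for RAB1A, 0.19 for RAB5C, -0.21 for RAB24 and -0.16 for RAB38. The fit with the block within each time had 3 residual degrees of freedom.

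The paired differences, MASTL minus control at 48 h, show what the block removed. Blocked adjusted p-values here are from the block within each time. The genes below were picked by a call with that block. Such a call favours even differences, so their evenness is no added support. RAB11A differed by 0.29, 0.19 and 0.24 in replicates 1, 3 and 4 (blocked adjusted p = 0.00664), although its overlapping groups gave no call without the block. RAB31 differed by -0.58, -0.69 and -0.45 (blocked adjusted p = 0.00248) and RAB5A by -0.33, -0.36 and -0.26 (blocked adjusted p = 0.0024). In both genes replicate 4 was the lowest array of its group, and the control array of replicate 4 lay below at least 1 silenced array of another replicate. RAB2B differed by -0.27, -0.26 and -0.29 (blocked adjusted p = 0.0030), and RAB11FIP3 by 0.33, 0.46 and 0.27 (blocked adjusted p = 0.00704). RAB32 was less even, with 0.35, 0.24 and 0.57 (blocked adjusted p = 0.0422). With the block within each time all 4 tested RAB11 interactors and RAB11A were called as rises at 48 h (RAB11FIP5 at a blocked adjusted p of 0.0318). With the block over all arrays RAB11A (adjusted p = 0.0940), RAB11FIP3 (0.0673) and RAB11FIP5 (0.140) were not called at 48 h. The 3 paired differences had 1 sign in 32 of the 55 genes, 58.2% beside 44.6% of all features.

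**Figure D3:**
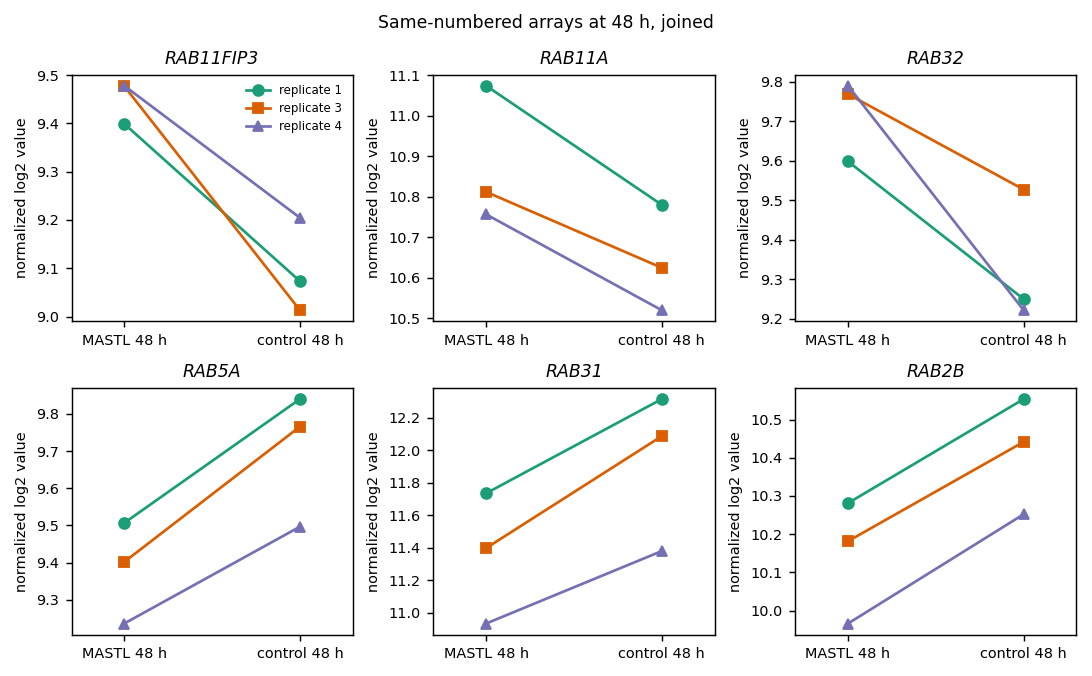
Normalized log2 value (vertical axes, each with its own range) at 48 h in MASTL siRNA cells (left) and control cells (right), with lines joining arrays of the same replicate number, for 6 of the genes called only with the replicate block. The 3 lines run the same way in each panel, while the levels of the replicates differ. The genes were picked by a call with the block within each time, which favours even differences, so the pattern is no added support.

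Several probes measured some of these genes. Another probe passed the noise limit for 13 members, 19 such probes in all, and 7 of the 19 had the opposite sign to the probe used at 24 h and 5 at 48 h. RAB11FIP2 was called with both of its probes at both times, the second with 0.24 (SE 0.029, adjusted p = 0.00857) and 0.15 (SE 0.026, adjusted p = 0.0240). For RAB23 the second probe had 0.30 (SE 0.069, adjusted p = 0.119) at 24 h and 0.33 (SE 0.061, adjusted p = 0.0316) at 48 h, and another, above the limit on 5 arrays, had 0.032 and 0.045, neither called. The second probe of RAB11FIP1 was not called, with -0.0009 (SE 0.037, adjusted p = 0.997) and 0.069 (SE 0.033, adjusted p = 0.417), at a level of 7.48 averaged over the arrays, close to the noise limit. RAB40B, RAB8B and RAB9A each rest on a single probe past the limit. The second probe of RAB28, at a mean of 7.93, was not called at 24 h (0.080, adjusted p = 0.670), at 48 h (0.10, adjusted p = 0.259) or on average (0.091, adjusted p = 0.130), so the average call of RAB28 rests on 1 of its 2 probes. Here the adjustment ran over every probe past the limit as a feature of its own.

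**Figure D4:**
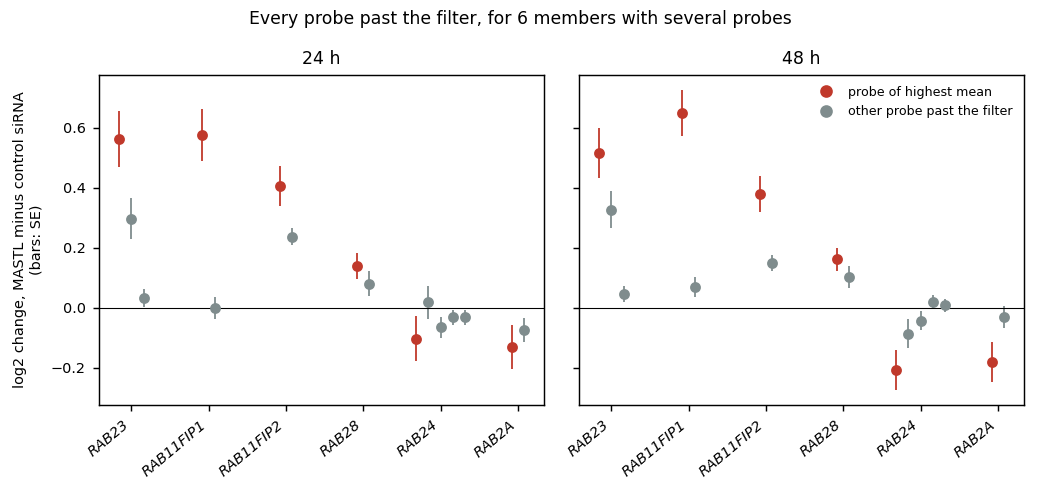
Log2 change, MASTL minus control siRNA (vertical axes, bars SE), at 24 h and 48 h for every probe past the noise limit of 6 genes with several probes, with the probe of highest mean in red and others in grey. Both RAB11FIP2 probes and the first 2 RAB23 probes lie above 0, while the second RAB11FIP1 probe lies near 0.

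For the 5 genes called at both times, on which these results turn, the stretch just upstream of the start is shown where RefSeq's promoter table (GRCh38.p14) holds it. A window of 150 bases before the start is given 5′ to 3′ on the strand of the gene, with matches to the GC box (GGGCGG) or the CCAAT box (CCAAT), on either strand, in capitals. The windows are chr10:118046942-118047091 on the minus strand for RAB11FIP2, chr6:57222308-57222457 on the minus strand for RAB23, chr17:82698699-82698848 on the minus strand for RAB40B and chr15:63189456-63189605 on the plus strand for RAB8B.
RAB11FIP2: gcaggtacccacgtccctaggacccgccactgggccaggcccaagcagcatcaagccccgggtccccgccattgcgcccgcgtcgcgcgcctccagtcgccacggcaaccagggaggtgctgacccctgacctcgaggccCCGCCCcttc
RAB23: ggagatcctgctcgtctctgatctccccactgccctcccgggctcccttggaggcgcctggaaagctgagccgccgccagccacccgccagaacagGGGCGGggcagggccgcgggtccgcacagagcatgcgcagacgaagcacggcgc
RAB40B: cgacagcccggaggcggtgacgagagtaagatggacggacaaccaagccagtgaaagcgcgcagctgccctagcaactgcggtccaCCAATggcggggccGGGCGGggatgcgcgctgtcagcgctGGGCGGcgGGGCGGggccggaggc
RAB8B: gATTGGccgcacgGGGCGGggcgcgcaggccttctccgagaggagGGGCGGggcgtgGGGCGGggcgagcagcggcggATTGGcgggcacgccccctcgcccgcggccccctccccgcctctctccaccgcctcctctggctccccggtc

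These windows are rich in G and C, with 73.3% for RAB11FIP2, 72.0% for RAB23, 72.0% for RAB40B and 80.7% for RAB8B, beside a median of 60.0% over 35116 promoters of the same length. They hold 14, 14, 18 and 20 CpG dinucleotides in that order of genes, beside a median of 7. The GC box matched 1 time each in RAB11FIP2 and RAB23 and 3 times each in RAB40B and RAB8B, and 36.8% of all promoters hold it. The CCAAT box matched 1 time in RAB40B and 2 times in RAB8B, and 23.5% of all promoters hold it. No capital stretch overlaps another. The other motifs searched on both strands had 0 matches in the 4 windows: the TATA box (TATAAA, in 6.71% of all promoters), an ETS site (CCGGAAG, 6.85%), the E-box (CACGTG, 4.57%), the CRE (TGACGTCA, 1.4%), the AP-1 site (TGACTCA, 2.89%), a TEAD site (GGAATG, 7.08%) and the CArG box (0.769%). Such matches describe the letters of the window only. Rises and a fall were found among genes with windows of this kind, and 44 of the 55 tested genes had an entry in the table.

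The genes that load, switch off and read RAB proteins were taken as 5 lists of 183 genes, 166 of them tested. These lists too were chosen with earlier results of these data known. At 24 h 5 were called, 3.01% beside 0.9% of all features, 3 as rises and 2 as falls. At 48 h 13 were called, 7.83% beside 2.36%, 9 as rises and 4 as falls. With the block within each time the 48 h count was 31, 19 as rises and 12 as falls, which is 18.7% beside 12.3% of all features under that fit. The median log2 change over the 166 genes was 0.021 at 24 h and 0.0076 at 48 h.

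Exchange factors held 4 calls of 48 tested at each time, the same 4 genes. That is 8.33%, beside 0.9% of all features at 24 h and 2.36% at 48 h. RAB3IP, also called Rabin8, is the exchange factor that activates RAB8 on the way to the cilium. It read 8.59 and 8.73 in MASTL siRNA cells at 24 h, against 9.11, 9.10 and 9.23 in control cells, and 8.64, 8.79 and 8.61 at 48 h, against 9.27, 9.25 and 9.25. Every silenced array lay below every control array. The fall was -0.49 (SE 0.063, adjusted p = 0.0102) at 24 h and -0.57 (SE 0.056, adjusted p = 0.00179) at 48 h, the same direction as RAB8B. DENND5B, an exchange factor with a DENN domain, rose by 0.50 at both times (SE 0.065 and 0.058, adjusted p = 0.0106 and 0.00382). TRAPPC6B, a subunit of the TRAPP complexes that act on RAB1 and RAB11, rose by 0.31 and 0.32 (SE 0.044 and 0.039, adjusted p = 0.0152 and 0.00522). RIN1, an exchange factor for RAB5, rose by 0.15 and 0.11 (adjusted p = 0.0328 and 0.0477). The 24 h call was lost with either replicate block (0.0685 and 0.0561), the stricter filter (0.0703), trend and robust moderation (0.175) and only the 24 h arrays (0.131), and the 48 h call with cyclic loess (0.0611), the stricter filter (0.0857), trend and robust moderation (0.198) and only the 48 h arrays (0.155). Leaving out 1 array ended the 24 h call for 9 of the 11 arrays (not MASTL replicate 1 or 3 of 48 h) and the 48 h call for 10 (not MASTL replicate 3 of 48 h). At 48 h the block within each time called 6 exchange factors, 5 as rises. That is 12.5%, close to the 12.3% of all features under the same fit.

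GTPase-activating proteins held 1 call of 32 tested at 24 h, 3.12% beside 0.9% of all features, and 3 at 48 h, 9.38% beside 2.36%. With the block within each time 5 were called at 48 h, 15.6% beside 12.3%. RAB3GAP1, the catalytic subunit of a complex that switches off RAB3 and also serves RAB18, read 9.03 and 8.98 in MASTL siRNA cells at 24 h, against 9.32, 9.63 and 9.52 in control cells. At 48 h it read 8.99, 8.95 and 8.86 in MASTL siRNA cells, against 9.50, 9.55 and 9.48 in control cells. The groups were apart at both times, with falls of -0.48 (SE 0.079, adjusted p = 0.0323) and -0.58 (SE 0.070, adjusted p = 0.00482). TBC1D15, which acts on RAB7, fell at 48 h by 0.24 (SE 0.036, adjusted p = 0.01005), while its 24 h change was -0.013 (SE 0.040, adjusted p = 0.968). EVI5L, a TBC domain protein, had 0.21 (adjusted p = 0.0766) at 24 h and rose by 0.22 (adjusted p = 0.0218) at 48 h. That call was lost with trend and robust moderation (0.248) and with only the 48 h arrays (0.0917).

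Effectors and tethers held 0 calls of 70 tested at 24 h, where the smallest adjusted p was that of the inositol phosphatase OCRL (0.26, adjusted p = 0.114). At 24 h 14 of the 70 had an unadjusted limma p under 0.05, beside 2006 of all 22003 features. At 48 h 5 were called, 7.14% beside 2.36% of all features. With the block within each time 15 were called, 9 as rises and 6 as falls, 21.4% beside 12.3%. OSBPL1A, a RAB7 effector that senses cholesterol on late endosomes, read 9.01, 8.73 and 8.88 in MASTL siRNA cells at 48 h, against 8.31, 8.21 and 8.34 in control cells, a rise of 0.59 (SE 0.073, adjusted p = 0.00522), and had 0.30 (SE 0.082, adjusted p = 0.209) at 24 h. The exocyst tethers vesicles to the plasma membrane, and its subunits EXOC2 and EXOC5 rose at 48 h by 0.34 (adjusted p = 0.0169) and 0.19 (adjusted p = 0.0238). MICAL2, a flavoprotein that oxidizes actin, rose by 0.17 (adjusted p = 0.0221). GOLGA1, a golgin of the trans-Golgi, fell by 0.26 (adjusted p = 0.0238). Among 7 tested RAB-like genes IFT27, a small GTPase of intraflagellar transport, rose at 48 h by 0.18 (adjusted p = 0.0167), and at 24 h the smallest p was that of RASEF (-0.067, adjusted p = 0.539). Of 9 tested genes of prenylation and GDP dissociation 0 were called by limma, with an unadjusted p under 0.05 for 3 at 24 h and 4 at 48 h. Of all 22003 features 2006 had such a p at 24 h and 3083 at 48 h. YIPF5 had the smallest p at 24 h (-0.20, adjusted p = 0.425) and RABGGTA, a subunit of the enzyme that prenylates RAB proteins, at 48 h (0.13, adjusted p = 0.107). With the arrays of 48 h paired by number, the block within each time called 3 of the 9, 33.3% beside 12.3% of all features. These were RABGGTA as a rise (0.0198) and YIPF5 (0.0400) and YIPF4 (0.0114), membrane proteins of the YIP family, as falls.

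**Figure D5:**
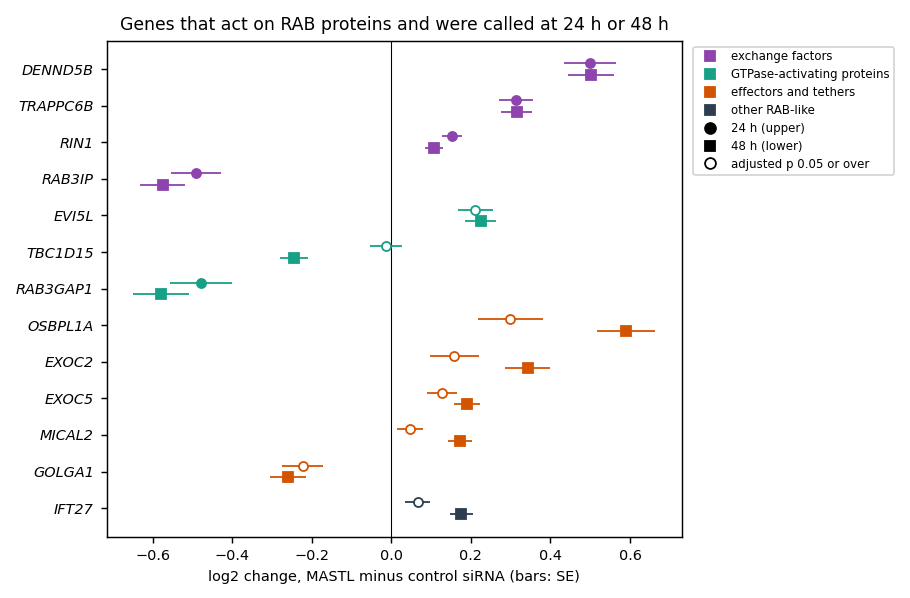
Log2 change, MASTL minus control siRNA (horizontal axis, bars SE), at 24 h (circles) and 48 h (squares), coloured by list. Shown are the 13 genes of the RAB pathway lists that were called at either time. RAB3IP and RAB3GAP1 lie left of 0 by about the same amount at both times, and DENND5B and TRAPPC6B lie right of it.

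Time in culture was compared within the control siRNA cells, 48 h against 24 h. By limma 0 of the 55 genes and 0 of all features were called, with an unadjusted p under 0.05 for 4 genes and 2181 features. RAB8A had the smallest p of these, with 10.36, 10.38 and 10.32 at 48 h against 10.55, 10.63 and 10.55 at 24 h, a difference of -0.22 (SE 0.046, adjusted p = 0.236). RAB35, of fast recycling, had -0.17 (adjusted p = 0.496), RAB5A had 0.25 (adjusted p = 0.445) and RAB26, of secretory granules, 0.12 (adjusted p = 0.435). The genes called for MASTL siRNA had control differences of 0.013 for RAB40B, -0.11 for RAB11FIP1, -0.049 for RAB11FIP2, -0.17 for RAB23, 0.12 for RAB8B and -0.029 for RAB9A, none called.

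Single arrays decided several calls but no direction among the called genes. At 24 h the count of members was 0 without either MASTL array, which leaves 1 silenced array assumed to vary like the other groups. RAB40B at 24 h lost its call without MASTL replicate 1 or 3 of 24 h (adjusted p 0.0645 to 0.0873), and RAB11FIP1 without any of the 5 arrays of 24 h (0.0616 to 0.184), while both kept their 48 h calls throughout. RAB23 at 24 h lost its call without any 24 h array, 48 h control replicate 1 or 48 h MASTL replicate 3 (0.0621 to 0.255), and at 48 h without those 2 arrays of 48 h (0.0626 to 0.0644). RAB11FIP2 at 24 h kept its call only without 24 h control replicate 2 or 48 h MASTL replicate 1 or 4 (otherwise 0.0503 to 0.254), and at 48 h lost it without 48 h control replicate 1 or 3 (0.0544 to 0.0553). RAB8B lost its 24 h call without any 24 h array or replicate 3 of either 48 h group (0.0543 to 0.237). Its 48 h call was lost without control replicate 1 or MASTL replicate 1 or 3 of 24 h, or without control replicate 1 or 3 or MASTL replicate 3 or 4 of 48 h (0.0533 to 0.102). RAB9A at 48 h lost its call without replicate 3 of either 48 h group (0.0539 to 0.0593), and the RAB28 average without 48 h control replicate 1 or MASTL replicate 3 of either time (0.0534 to 0.0962). The RAB9A average lost its call without MASTL replicate 3 of 24 h (0.0666). Each of the 5 pathway calls at 24 h was lost without MASTL replicate 1 of 24 h, and each but RAB3IP without at least 1 other array as well (0.0504 to 0.246). At 48 h 6 of the 13 were kept throughout (RAB3IP, DENND5B, TRAPPC6B, RAB3GAP1, TBC1D15 and OSBPL1A) and 7 were lost without at least 1 array (0.0504 to 0.159).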

How the data were processed

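Total RNA of the 11 samples was amplified to biotinylated cRNA and hybridised to Illumina 1-colour arrays, per the labels' protocols. The analysis started from the table of normalized log2 values that the authors deposited, with 47321 probes per array. Lumi was used, per the submitters' processing notes, and its version and the transform are not given in the sources used here. The log2 scale is taken from the range of 7.24 to 14.5. Sorted values differed between arrays by at most 0.000698. A second deposited table, of 22 columns (non-normalized signal intensity and detection p-values), was left out: no column name in it matches a sample label.

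The noise limit was the 95th percentile of the values below the most common value, 7.36, mirrored about it. Gene symbols came from the platform annotation. Of 47321 probes 30113 had 1 symbol, 8 several and 17200 none. Among 27147 probes above the limit on at least 2 arrays, the probe of highest mean stood for a gene, and probes without 1 symbol stood alone. A mean per group was fitted over the 11 arrays with lmFit and eBayes (limma 3.58.1, R 4.3.3), two-sided, with 7 residual degrees of freedom and 1.67 from moderation. The fit was tested on simulated data. Alternatives tried were a replicate block, other normalization, filters, probe choice and moderation, and leaving out each array. Figures used matplotlib 3.10.9 in Python 3.11.15.

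The members, the role groups and the pathway lists were chosen with earlier results of these data known. Named with values were RAB23, RAB40B, RAB11FIP1, every called member, every tested RAB11 interactor, and in each role group the 2 tested genes of highest mean and that of smallest p at each time. In each pathway list the called genes at 24 h or 48 h were named, or the gene of smallest p. Pairing rests on the correlations at 48 h. The 2 pairs of 24 h (0.104 and 0.470) are too few to decide, and across times same-numbered arrays correlated between -0.302 and 0.161.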

Additional observations from a re-analysis of the deposited data

How the results depend on the processing

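Every alternative kept the direction of every called value that was recomputed. With the replicate block over all arrays, the members called were 8 at 24 h, 14 at 48 h and 13 on average. The replicate block within each time gave 8, 19 and 19, and with only the arrays of the time compared the 24 h count was 3. Over all features the 24 h count was 360 with the block, 645 with the block within each time and 58 with only that time's arrays, against 198 as reported, and the 48 h count was 1869, 2702 and 338, against 520. Pathway genes called were 8 at 24 h with the block within each time and 0 with only that time's arrays, and at 48 h 25 with the block over all arrays, 31 with the block within each time and 7 with only that time's arrays. Under control siRNA, the block over all arrays gave 10 members for 48 h against 24 h, beside 11.7% of all features (2574), though the numbers did not pair arrays across times. The block within each time could give no value for that comparison. The cause of these moves was not tested, beyond the fewer arrays of the fits within 1 time.

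With each array left out in turn, the members called ranged from 0 to 5 at 24 h, 3 to 7 at 48 h and 5 to 9 on average, and stayed at 0 both for the 48 h minus 24 h change and for 48 h against 24 h in control cells. All features ranged from 56 to 203 and from 252 to 572, and pathway genes from 0 to 6 and from 7 to 13. The member medians ranged from -0.008 to 0.0132 and from -0.0082 to 0.0145. The lowest 48 h member count, 3, came without replicate 3 of either group or control replicate 1.

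With a trend and robust moderation RAB40B at 24 h (adjusted p = 0.113) and RAB9A at 48 h (0.0751) and on average (0.0887) were no longer called. Of the pathway genes, neither were TRAPPC6B at 24 h (0.0844), EVI5L (0.248), MICAL2 (0.193) and EXOC5 (0.0516) at 48 h, and RIN1 at both times. With only the arrays of the time compared the same held for RAB40B (0.0838) and RAB11FIP2 (0.188) at 24 h and for RAB23 (0.0846) and RAB8B (0.110) at 48 h. Trend and robust moderation also added calls. They were RAB5A (adjusted p = 0.0443) and RAB6B (0.0379, for a change of 0.053) on average, and GOLGA1 at 24 h (0.0455). Cyclic loess, median centring, no filter on dim probes, a stricter filter, the probe of largest spread and all probes as features left the 24 h, 48 h and average calls of RAB11FIP1, RAB11FIP2, RAB23, RAB40B, RAB8B and RAB9A in place. Values close to the noise limit limit what RAB6B, the second RAB11FIP1 probe and the 13 untested genes can show.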

Other observations

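Of the 166 tested pathway genes 18 were called in the average of both times, 10.8% beside 4.7% of all features, 14 as rises and 4 as falls. Of these, 5 were called at neither time alone without a replicate block, all as rises. TBC1D4, a GTPase-activating protein for RAB10 and RAB8 in insulin-regulated glucose transport, had a log2 change of 0.27 (SE 0.054, adjusted p = 0.0670) at 24 h and 0.22 (SE 0.048, adjusted p = 0.0536) at 48 h, where the block within each time gave 0.00426. The groups were apart at both times, and the average rise was 0.25 (SE 0.036, limma adjusted p = 0.00619). RILPL1, an effector of phosphorylated RAB8 and RAB10 at the centrosome, rose on average by 0.27 (adjusted p = 0.0203), a call lost without control replicate 1 or MASTL replicate 1 or 3 of 24 h (0.0525 to 0.0799), and its blocked adjusted p at 48 h was 0.00228. OCRL had an average rise of 0.20 (adjusted p = 0.0232), lost with the block within each time (0.0526), with trend and robust moderation (0.0664) and without replicate 1 of either 24 h group, control replicate 3 of 48 h or MASTL replicate 3 or 4 of 48 h (0.0526 to 0.100). ERC1, a scaffold of exocytic sites, had an average rise of 0.12 (adjusted p = 0.0137), lost with trend and robust moderation (0.109) and without MASTL replicate 1 of 24 h (0.0676), and its blocked adjusted p at 48 h was 0.0430. PLEKHM2, an adaptor of lysosome transport, had an average rise of 0.19 (adjusted p = 0.0435). That call was lost with the block over all arrays (0.0824), cyclic loess (0.0714), no filter on dim probes (0.0646) and trend and robust moderation (0.121), and without any array but control replicate 3 of 24 h and control replicate 1 of 48 h (0.0717 to 0.174).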
